A study of Mus musculus with 6 samples.

Results

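The genes described here encode the factors that build ribosomes in the nucleolus. The set was a list of 59 gene symbols with roles in ribosomal RNA transcription, small nucleolar RNPs and the assembly of both ribosomal subunits. It was chosen with earlier results of these data known. Of the 59 symbols, 58 were found among 30037 named genes of the deposited expression table, and all 58 were tested. The remaining symbol, Utp4, was not found, and RefSeq gives Cirh1a as an older name of that gene, which is described beside the set.

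Expression had been measured by poly(A) RNA sequencing in leukaemia cells of mice with acute myeloid leukaemia (AML). The sorted fraction was L-GMP, leukaemia cells that resemble granulocyte-macrophage progenitors. One group was wild type (WT) and the other was Prmt6-/-, the knockout (KO), with 3 libraries each and the animals aged 8 to 10 weeks. Both groups were leukaemic, and the labels used here do not name the oncogene that drove the leukaemia, the kind of Prmt6 allele or the sorting markers. Whether each library stands for its own animal is not stated either, so the p-values measure only how far these samples spread, and that spread may be technical. Prmt6 encodes an arginine methyltransferase of the nucleus whose best known substrate is histone H3.

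Ribosome production starts in the nucleolus, where RNA polymerase I transcribes the ribosomal DNA into a long precursor. Small nucleolar RNPs methylate and pseudouridylate that precursor, the small subunit processome folds and cleaves it, and separate sets of factors mature the small (40S) and large (60S) subunits. In leukaemia, as in other fast-growing cells, this pathway is closely tied to cell growth and is a classical target of the transcription factor MYC.

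Values are the authors' deposited log2 expression values, normalized between libraries. A difference is the KO mean minus the WT mean on that scale. It is given with its standard error (SE) from limma, a linear model fitted across all 15454 tested genes, and a gene was called when the Benjamini-Hochberg adjusted p over all of them was under 0.05. Prmt6, the targeted gene, read 7.82, 7.60 and 7.41 in WT and 5.42, 5.46 and 5.48 in KO. It was lower in every KO library, by -2.16 (SE 0.0977, limma adjusted p = 3.57e-06). The authors' deposited log2 fold change of Prmt6 was -7.66, so the deposited scale understates this fall and gives no share of remaining RNA. The labels do not state which part of the gene was deleted.

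The ribosome biogenesis genes moved in both directions and by small amounts. In the KO 14 of the 58 rose (24.1%) and 6 fell (10.3%), while 38 were not called. Over all tested genes 15.0% rose and 18.0% fell, 33.0% in either direction. The set's median difference was 0.05, beside 0.01 for all tested genes, and its members ran from -0.50 to 0.43. No member reached a log2 difference of 1 in either direction, whereas 304 of all tested genes did. On the deposited scale the largest rise corresponded to a 1.35-fold higher level and the largest fall to a 1.42-fold lower level.

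Most of these genes sit at a high level, so they were also set beside the 6384 tested genes of a level range from 8.40 to 12.81. Its bounds are the 5th and 95th percentiles of the members' mean levels, so some members lie outside it. The match is loose, with a median level of 10.03 in the range and 10.93 among the members. Of the 6384 genes 18.0% rose and 27.6% fell, with a median of -0.04. Their median absolute difference was 0.177, beside 0.130 for the ribosome biogenesis genes and 0.108 for all tested genes. The KO libraries lay entirely above the WT libraries in 20 members and entirely below in 8, and the groups overlapped in the rest. Among all tested genes, groups did not overlap in 47.4%, with the KO above in 23.0% and below in 24.4%. In the level range they did not overlap in 3845 of 6384 genes, with the KO above in 1590 and below in 2255. The count of risen members changed with the libraries and the scaling, as did the share of all genes fitted. It was 8 without KO replicate 2, where 11.0% of all genes rose, 9 without KO replicate 3 (13.1%) and 9 without WT replicate 2 (11.6%). With quantile normalization 23 rose and 4 fell, beside 18.3% and 15.4% of all genes.

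**Figure D1:**
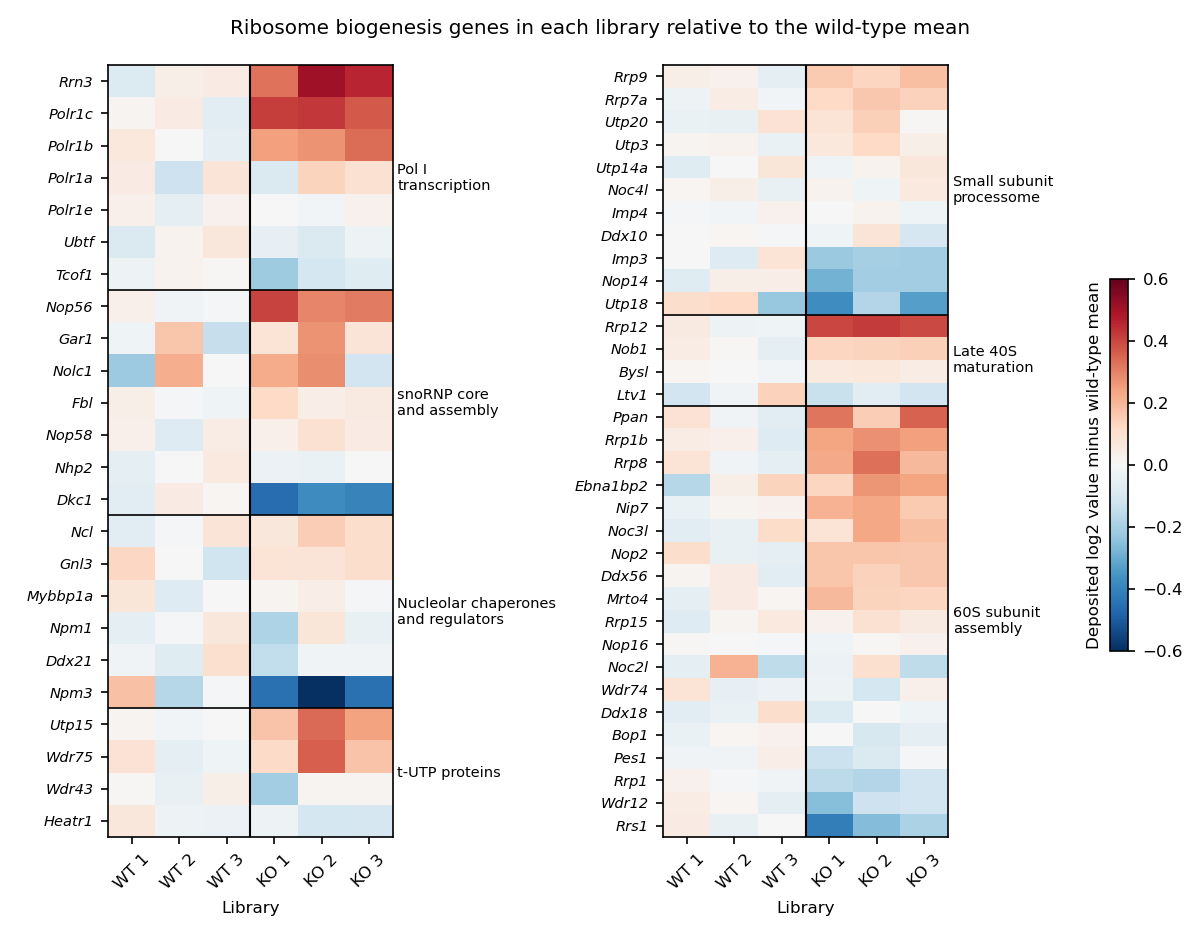
Deposited log2 value of each ribosome biogenesis gene minus its WT mean (colour, from -0.6 in blue to 0.6 in red), with genes in rows by role and the 3 WT and 3 KO libraries in columns. Rrn3, Polr1c, Nop56 and Rrp12 are red and Dkc1 and Npm3 blue in all 3 KO libraries, while most rows stay pale.

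The authors' deposited test gave the same sign for all 58 genes. By the authors' deposited adjusted p, 16 members were higher and 8 lower, against 13.6% and 17.5% of the genes tested here. These calls include each of the 20 made here. Differences were smaller here than the authors' deposited log2 fold changes, at 0.782 to 0.917 of them among the 20 called genes. An exact permutation of the group labels gives 0.1 as its smallest two-sided p with 3 libraries against 3, so it cannot pass 0.05, and every member described below with separated groups had that p.

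Promoter sequences are shown for 5 genes that changed, because the hexamer CACGTG, the E-box that MYC-MAX dimers bind, was counted in all promoters of the set. Each runs from 250 bases before to 50 bases after the transcription start, taken from RefSeq on GRCm38.p6 and printed 5′ to 3′ along the gene's strand. Capitals mark CACGTG, which reads the same on both strands. Rrn3, Nop2 and Rrp7a rose and hold it, and Npm3 and Dkc1 fell and do not. Whether the hexamer goes with the direction of change was not tested. The other genes that rose and had a promoter, among them Nop56 and Polr1c, do not hold it and are not printed. The calls of Nop2 and Rrp7a lay near the threshold and were lost without most single libraries. The windows are chr16:13780449-13780748 (+) for Rrn3, chr6:125131633-125131932 (+) for Nop2, chr15:83122752-83123051 (-) for Rrp7a, chr19:45749516-45749815 (-) for Npm3 and chrX:75095604-75095903 (+) for Dkc1.
Rrn3: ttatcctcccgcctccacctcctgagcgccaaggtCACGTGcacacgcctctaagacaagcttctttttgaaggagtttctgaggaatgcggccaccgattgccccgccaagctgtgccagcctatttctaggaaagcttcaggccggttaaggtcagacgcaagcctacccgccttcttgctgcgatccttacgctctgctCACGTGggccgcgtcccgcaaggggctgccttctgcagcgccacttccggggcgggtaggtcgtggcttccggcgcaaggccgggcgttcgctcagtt
Nop2: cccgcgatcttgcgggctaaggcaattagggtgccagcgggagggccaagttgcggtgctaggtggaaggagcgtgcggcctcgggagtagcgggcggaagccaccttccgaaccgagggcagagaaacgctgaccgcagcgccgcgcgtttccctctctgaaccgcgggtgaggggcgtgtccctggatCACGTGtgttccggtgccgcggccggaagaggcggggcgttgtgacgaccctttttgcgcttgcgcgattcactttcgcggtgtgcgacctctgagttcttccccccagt
Rrp7a: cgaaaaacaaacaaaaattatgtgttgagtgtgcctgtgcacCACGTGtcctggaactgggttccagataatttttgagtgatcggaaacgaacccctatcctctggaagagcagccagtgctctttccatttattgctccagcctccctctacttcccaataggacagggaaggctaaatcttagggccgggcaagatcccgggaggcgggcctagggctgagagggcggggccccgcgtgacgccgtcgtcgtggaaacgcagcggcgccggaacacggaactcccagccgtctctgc
Npm3: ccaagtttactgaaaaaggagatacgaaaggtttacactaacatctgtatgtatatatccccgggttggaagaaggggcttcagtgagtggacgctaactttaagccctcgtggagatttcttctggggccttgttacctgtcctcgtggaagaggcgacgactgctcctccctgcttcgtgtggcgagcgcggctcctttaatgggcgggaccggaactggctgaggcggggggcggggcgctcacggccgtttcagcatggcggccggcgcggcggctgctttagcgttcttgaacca
Dkc1: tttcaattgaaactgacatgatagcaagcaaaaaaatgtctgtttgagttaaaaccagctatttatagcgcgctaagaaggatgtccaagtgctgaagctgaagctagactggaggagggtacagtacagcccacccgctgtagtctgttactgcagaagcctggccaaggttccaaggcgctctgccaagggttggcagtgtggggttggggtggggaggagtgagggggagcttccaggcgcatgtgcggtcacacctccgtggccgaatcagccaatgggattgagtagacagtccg

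Of the 59 genes, 53 had a promoter in that table, and CACGTG stood in that of 11 (20.8%). Among all tested genes with a promoter it stood in 1202 of 10895 (11.0%), and among all genes of the table in 2187 of 27025 (8.09%). A second list of other ribosome biogenesis genes, described below, held it in 15 of 86 (17.4%). Within the set it was present in 3 of 13 genes that rose (23.1%), in 0 of 5 that fell and in 7 of 34 that were not called (20.6%). The remaining promoter with the hexamer belongs to Utp4. In Rrn3 the first base of the hexamer lay at -215 and again at -48 from the start, in Nop2 at -60 and in Rrp7a at -208. A match describes the letters in the window and not the binding of a factor.

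RNA polymerase I genes were the first group by role. Of 7 members 3 rose, 0 fell and 4 were not called, with a median difference of 0.05. The background for this and every later role group is the share of all tested genes, 15.0% higher and 18.0% lower. That is 33.0% called in either direction, and 45.6% were called among tested genes of the level range given above. Rrn3 encodes TIF-IA, the factor that joins polymerase I to the promoter and makes it competent to initiate (chr16:13780708-13814839, GRCm38, + strand). Its values were 11.51, 11.63 and 11.64 in WT and 11.92, 12.10 and 12.05 in KO. All KO libraries were above all WT libraries, with means of 12.03 ± 0.09 and 11.60 ± 0.07 (SD, n = 3 each). The difference was 0.43 (SE 0.063, 95% interval 0.29 to 0.57, limma adjusted p = 0.000938), a 1.35-fold rise and the largest among the members on the deposited scale. The authors' deposited log2 fold changes put Rrn3, at 0.48, after Polr1c, at 0.49, and the uncalled Nolc1, at 0.53.

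Polr1c encodes a subunit that polymerases I and III share (chr17:46243920-46248054, - strand). It read 9.74, 9.77 and 9.66 in WT and 10.14, 10.15 and 10.09 in KO. The KO group lay above the WT group by 0.40 (SE 0.0561, limma adjusted p = 0.000711). Polr1b, the second largest and catalytic subunit of polymerase I (chr2:129100995-129126594, + strand), read 10.63, 10.57 and 10.51 in WT and 10.82, 10.84 and 10.90 in KO. Again no KO library fell within the WT range, and the difference was 0.28 (SE 0.0558, limma adjusted p = 0.00438).

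The other polymerase I members were not called. Polr1a, the largest subunit, differed by 0.05 with overlapping groups (95% interval -0.15 to 0.24), and Polr1e by 0.00. Ubtf, the HMG-box factor that keeps ribosomal DNA open, differed by -0.06. Tcof1, which encodes treacle, a cofactor of Ubtf and polymerase I, had its KO libraries at 11.02, 11.13 and 11.16 below WT libraries at 11.21, 11.26 and 11.25. That difference of -0.13 did not pass the adjusted threshold (limma adjusted p = 0.1).

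Small nucleolar RNP genes had 1 call in each direction. Of 7 members 1 rose, 1 fell and 5 were not called, and the median difference was 0.07. Dkc1 encodes dyskerin, the pseudouridine synthase of box H/ACA RNPs and a component of telomerase (chrX:75095854-75109777, + strand). It read 12.46, 12.58 and 12.54 in WT and 12.07, 12.15 and 12.13 in KO, so that the groups were well apart. The means were 12.53 ± 0.06 and 12.11 ± 0.04 (SD, n = 3 each), a difference of -0.41 (SE 0.0498, limma adjusted p = 0.000335).

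Nop56, a scaffold of the box C/D RNPs that guide ribose methylation, moved the other way (chr2:130274430-130279313, + strand). Its values were 13.19, 13.14 and 13.16 in WT and 13.57, 13.46 and 13.48 in KO. The KO libraries were higher by 0.34 (SE 0.0456, limma adjusted p = 0.000615). Nop56 hosts small nucleolar RNA genes whose annotated positions overlap its exons. Its box C/D partners were not called, with differences of 0.07 for the methyltransferase Fbl and 0.06 for Nop58.

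Of the H/ACA partners of Dkc1 in the set, Nhp2 differed by -0.03 and Gar1 by 0.14, and neither was called. Nolc1, a nucleolar phosphoprotein that chaperones snoRNPs, differed by 0.13 with an interval of -0.16 to 0.42. It had the lowest level of the set, a mean of 5.37, where the deposited scale understates fold changes. The authors' deposited log2 fold change for Nolc1 was 0.53 with an adjusted p of 0.551.

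Among 6 nucleolar chaperones and regulators, 1 fell and 0 rose. Npm3, a nucleoplasmin family histone chaperone that binds Npm1, had the largest fall of all members (chr19:45747734-45749591, - strand). Its values were 10.87, 10.52 and 10.68 in WT and 10.24, 10.08 and 10.24 in KO. The KO libraries lay below every WT library, although the WT libraries spread over more of the scale than for most members. The means were 10.69 ± 0.17 and 10.19 ± 0.09 (SD, n = 3 each), a difference of -0.50 (SE 0.0904, 95% interval -0.71 to -0.30, limma adjusted p = 0.00286). Npm1 itself differed by -0.05 and nucleolin (Ncl) by 0.11, neither of which was called. Gnl3 (nucleostemin, a GTPase of the nucleolus), Mybbp1a and the helicase gene Ddx21 differed by 0.09, 0.01 and -0.06, also without a call.

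**Figure D2:**
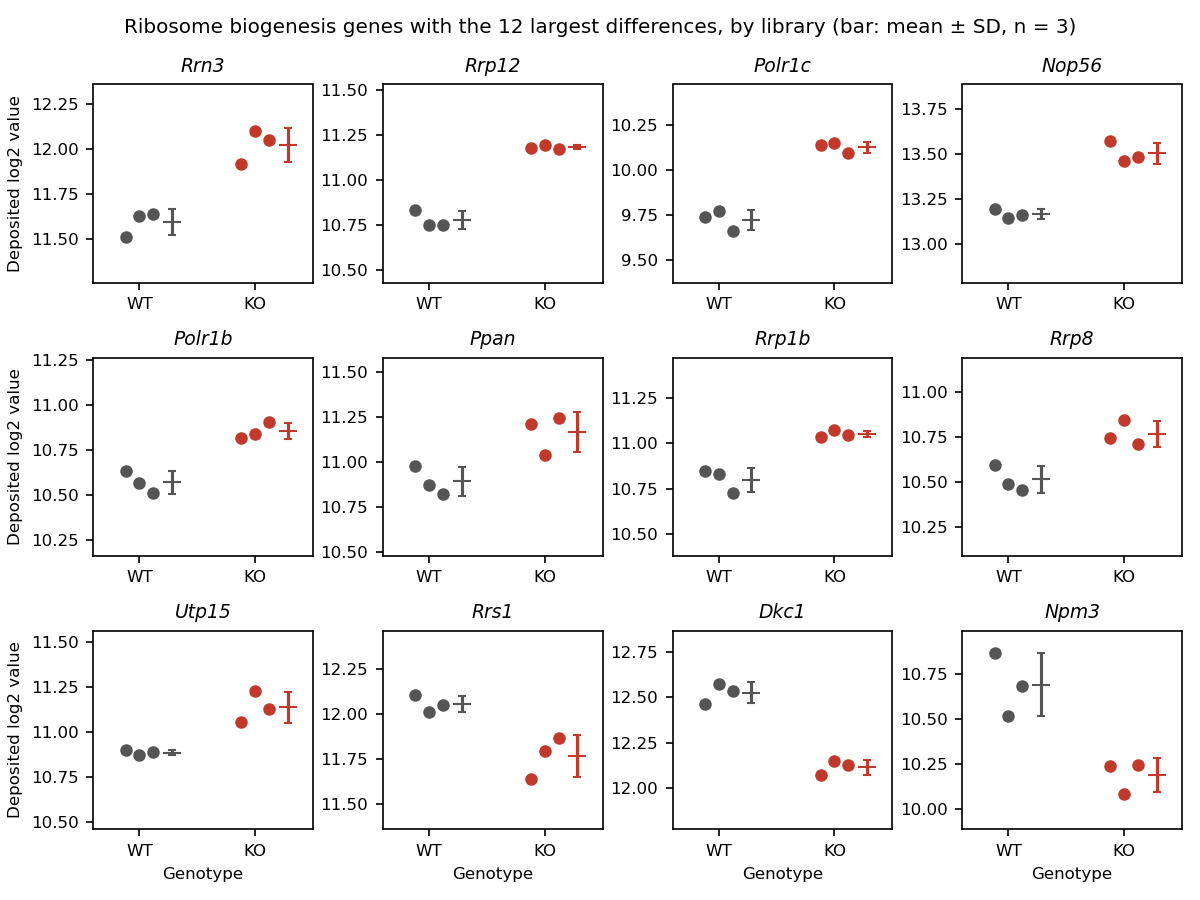
Deposited log2 values of the 12 called members with the largest differences, one panel per gene, with WT and KO libraries as points and the mean ± SD (n = 3) as a bar beside them. In each of the 12 panels the KO points do not overlap the WT points. Rrn3 rises from a mean of 11.60 to 12.03 and Npm3 falls from 10.69 to 10.19.

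The t-UTP proteins are the part of the small subunit processome that also acts in transcription of ribosomal DNA. Of 4 tested genes 1 rose. Utp15 read 10.90, 10.87 and 10.89 in WT and 11.06, 11.23 and 11.13 in KO (chr13:98246845-98263041, - strand). Its groups were separate and its difference was 0.25 (SE 0.0571, limma adjusted p = 0.00907). Wdr75 had separated groups too and differed by 0.22, with a limma adjusted p of 0.0558 and an authors' deposited adjusted p of 0.0389. Heatr1 differed by -0.08 and Wdr43 by -0.06, both with overlapping groups.

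Cirh1a, listed by RefSeq as the older symbol of the t-UTP gene Utp4, stands outside the counts above. It read 11.30, 11.38 and 11.38 in WT and 11.50, 11.64 and 11.67 in KO. The KO libraries were above every WT library, by 0.25 (SE 0.0591, limma adjusted p = 0.0103).

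Of the 11 other small subunit processome genes, 2 rose, 2 fell and 7 were not called, and the median difference was 0.02. Rrp9, a protein of the U3 snoRNP, rose by 0.16 (limma adjusted p = 0.0467) and Rrp7a by 0.14 (limma adjusted p = 0.0433). Nop14, a core component of the processome, fell, with a difference of -0.23 (limma adjusted p = 0.0112). Its values of 10.67, 10.77 and 10.78 in WT and 10.46, 10.53 and 10.53 in KO did not overlap. Imp3, a U3 snoRNP protein, fell as well, with a difference of -0.21 (limma adjusted p = 0.0251), whereas its partner Imp4 differed by -0.00.

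Rrp9, Rrp7a and Imp3 lay near the threshold. Rrp9 and Rrp7a each lost the call without any one of the 6 libraries, with limma adjusted p-values of up to 0.123 and 0.138, and Imp3 without any one library other than WT replicate 2, with up to 0.0723. Their differences stayed at 0.126 to 0.172 for Rrp9, 0.125 to 0.162 for Rrp7a and -0.25 to -0.17 for Imp3. With quantile normalization Imp3 differed by -0.16 and was not called, and without the filter on low values neither Rrp9 nor Rrp7a was. Rrp9 was also not called with the replicate number as a block (limma adjusted p = 0.0668). Utp18 had the largest difference among uncalled members, -0.29. Its WT libraries at 9.87, 9.89 and 9.54 and KO libraries at 9.39, 9.59 and 9.43 overlapped (limma adjusted p = 0.0516), while its authors' deposited adjusted p was 0.0203. The remaining members, Utp3, Utp14a, Utp20, Noc4l and Ddx10, differed by -0.01 to 0.08.

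Late maturation of the 40S subunit was represented by 4 genes, of which 1 rose. Rrp12, a HEAT-repeat protein of pre-40S particles with a role in their export (chr19:41862851-41896173, - strand), read 10.84, 10.75 and 10.75 in WT. In KO it read 11.18, 11.20 and 11.17. The means were 10.78 ± 0.05 and 11.18 ± 0.01 (SD, n = 3 each), and the difference of 0.40 (SE 0.0502, limma adjusted p = 0.000382) left a wide gap between the groups. Nob1, the endonuclease that forms the mature end of 18S RNA, differed by 0.13 (limma adjusted p = 0.0712) with separated groups. Bysl, needed for late pre-40S processing, differed by 0.06 and the export-linked factor Ltv1 by -0.11, and neither was called.

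The 60S assembly factors were the largest group, and 6 of 19 rose, 2 fell and 11 were not called, with a median difference of 0.06. Ppan, the mouse relative of yeast Ssf1 (chr9:20888175-20892178, + strand), read 10.98, 10.87 and 10.82 in WT and 11.21, 11.04 and 11.24 in KO. Its rise was 0.27 (SE 0.0699, limma adjusted p = 0.0155), and KO replicate 2 lay only a little above the highest WT library. The call was lost without WT replicate 2, KO replicate 1 or KO replicate 3, with limma adjusted p-values of up to 0.0557.

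Rrp1b, a paralogue of Rrp1 (chr17:32036100-32062865, + strand), read 10.85, 10.83 and 10.72 in WT and 11.04, 11.07 and 11.05 in KO. The rise was 0.25 (SE 0.0536, limma adjusted p = 0.00648). Rrp1 fell over the same libraries, with WT values of 12.64, 12.61 and 12.59 and KO values of 12.46, 12.44 and 12.50. Its difference of -0.15 (limma adjusted p = 0.0263) lost the call in several alternatives. It was -0.06 with quantile normalization, -0.08 with intensity-dependent centring, and the limma adjusted p reached 0.1 without KO replicate 2. The call was also lost without WT replicate 1, WT replicate 2 or KO replicate 1.

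Rrp8, a nucleolar methyltransferase that modifies a base of 28S RNA (chr7:105731730-105737385, - strand), read 10.60, 10.49 and 10.45 in WT and 10.74, 10.85 and 10.71 in KO. The groups did not overlap and the rise was 0.25 (SE 0.062, limma adjusted p = 0.0132). Without KO replicate 2 its adjusted p was 0.0589. Nop2, the 28S RNA cytosine methyltransferase whose promoter is printed above, rose by 0.16 (limma adjusted p = 0.0475). Its KO libraries, at 12.14, 12.15 and 12.14, were nearly identical and above WT libraries at 12.08, 11.93 and 11.92.

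Nip7 rose by 0.20 (limma adjusted p = 0.0164) and the DEAD-box helicase gene Ddx56 by 0.16 (limma adjusted p = 0.0376). Nip7 lost its call without KO replicate 2 (limma adjusted p = 0.068). Ddx56 lost it without any one of the 6 libraries, with adjusted p-values of up to 0.103, and Nop2 without any one library other than WT replicate 1, with up to 0.152. Neither was called without the filter on low values.

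Rrs1, which with Rpf2 brings the 5S RNP into the pre-60S particle (chr1:9545408-9547455, + strand), fell. It read 12.10, 12.01 and 12.05 in WT and 11.64, 11.80 and 11.87 in KO. Every KO library was lower, and the difference was -0.29 (SE 0.0647, limma adjusted p = 0.00859). None of the PeBoW genes, whose products form a complex needed for 28S RNA maturation, was called. Their differences were -0.08 for Pes1, -0.05 for Bop1 and -0.17 for Wdr12, the last with separated groups, a limma adjusted p of 0.0528 and an authors' deposited adjusted p of 0.0389.

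The 8 remaining 60S factors were not called. Ebna1bp2 differed by 0.21 with an authors' deposited adjusted p of 0.0464. Noc3l and Mrto4, a relative of the stalk protein P0, differed by 0.17 and 0.15. Rrp15, Nop16, Noc2l, Ddx18 and Wdr74 lay between -0.03 and 0.06. Over the whole set, the median half-width of the 95% interval was 0.127 and the widest among uncalled members was 0.29. The smallest called difference was 0.14 in size, for Rrp7a.

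**Figure D3:**
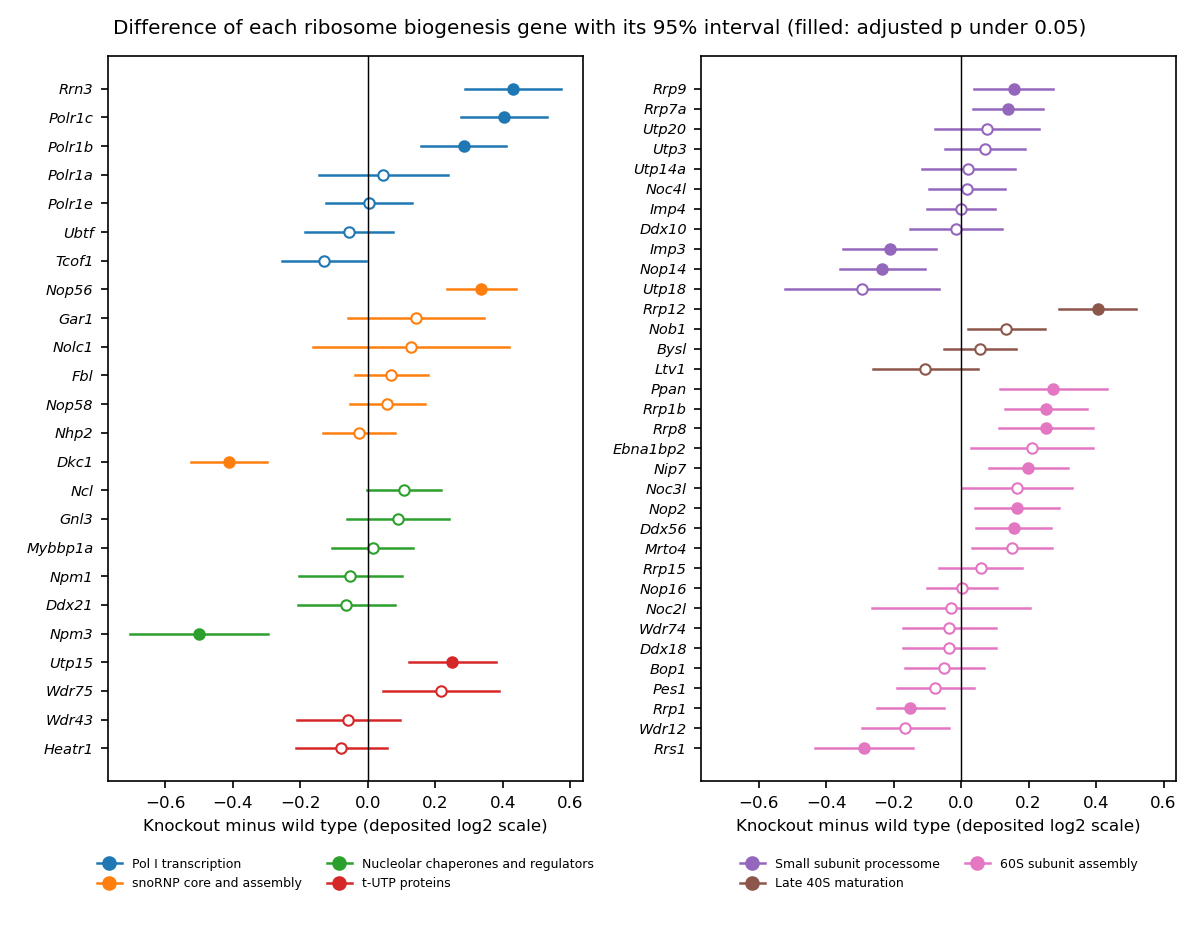
KO minus WT difference of each ribosome biogenesis gene on the deposited log2 scale (points) with its 95% interval (lines), coloured by role, filled where the limma adjusted p was under 0.05. Filled points lie on both sides of 0, from -0.50 for Npm3 to 0.43 for Rrn3.

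Genes whose products sit in one complex did not always move together. For each library the log2 ratio of a pair was set relative to its WT mean. These pairs were chosen after their values had been seen and are a description with no test. Polr1c rose and Polr1d, the partner with which it forms a heterodimer in polymerases I and III, fell. The Polr1c to Polr1d ratio was 0.72, 0.67 and 0.66 in the KO libraries, while the SD among WT libraries was 0.01. The Nop56 to Fbl ratio stood at 0.28, 0.26 and 0.26 in KO (WT SD 0.02), and the Nop56 to Nop58 ratio at 0.37, 0.20 and 0.26 (WT SD 0.05).

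In the H/ACA core, Dkc1 was lower relative to Nhp2 in every KO library, at -0.42, -0.34 and -0.40 (WT SD 0.05). Against Nop10, a small H/ACA core protein outside the set that fell further, Dkc1 was higher, at 0.55, 0.68 and 0.32 (WT SD 0.06). The Dkc1 to Gar1 ratio averaged -0.55 in KO. Rrp1b relative to its paralogue Rrp1 stood at 0.40, 0.45 and 0.36 (WT SD 0.05), and Npm3 relative to Npm1 averaged -0.45 with WT libraries that spread widely (SD 0.21). Rrs1 relative to Rpl5 averaged -0.82 in KO (WT SD 0.15), whereas the Rrs1 to Rpf2, Pes1 to Bop1 and Wdr12 to Bop1 ratios overlapped between genotypes.

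**Figure D4:**
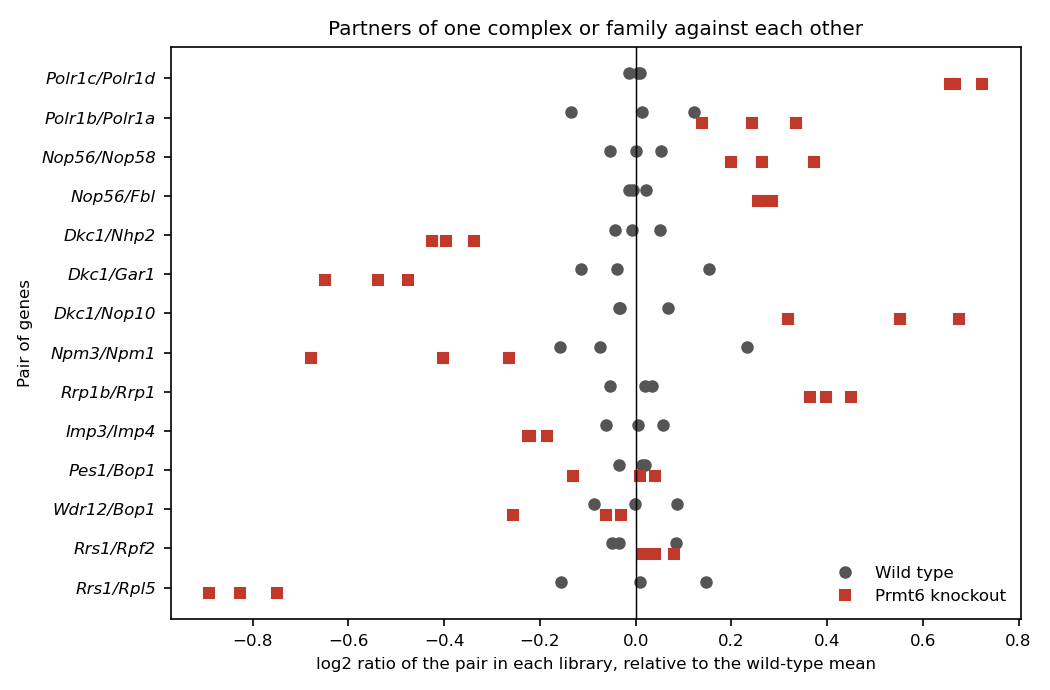
Log2 ratio of paired complex partners in each library relative to the WT mean, with WT and KO libraries as points. The 3 KO points of Polr1c to Polr1d lie near 0.68 and those of Dkc1 to Nhp2 near -0.39, while the Rrs1 to Rpf2 points of the genotypes overlap.

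Beyond the set, a second list held further ribosome biogenesis genes, of which 104 were tested. There 15 rose (14.4%) and 17 fell (16.3%), beside 15.0% and 18.0% of all tested genes. Those shares of all tested genes are also the background for the shorter lists that follow. Over the 104 genes the median was -0.03 and the range ran from -0.93 to 0.60. The largest fall was that of Nop10, at 10.73, 10.74 and 10.80 in WT and 9.75, 9.70 and 10.04 in KO. All KO libraries were lower, and its difference was -0.93 (limma adjusted p = 9.64e-05). Shq1, an assembly chaperone of dyskerin, rose by 0.29 (limma adjusted p = 0.00438), and Znhit3, a box C/D assembly factor, by 0.20 (limma adjusted p = 0.0225). Znhit3 lost its call without WT replicate 1, WT replicate 2 or KO replicate 1.

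Of 8 other polymerase I factors 2 rose and 3 fell. Taf1a, a subunit of the promoter selectivity factor SL1, rose by 0.60 (limma adjusted p = 0.000103). Znrd1, which encodes a small polymerase I subunit, fell by 0.64 (limma adjusted p = 0.000107). Polr1d read 10.91, 10.94 and 10.85 in WT and 10.59, 10.66 and 10.61 in KO, a fall with a difference of -0.28 (limma adjusted p = 0.00335).

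Among 35 other small subunit factors 4 rose and 2 fell. Nat10, the acetyltransferase that modifies 18S RNA, fell by 0.71 (limma adjusted p = 0.00029). The helicase gene Dhx37 rose by 0.51 (limma adjusted p = 0.000404) and Tsr1, a GTPase-like pre-40S factor, by 0.38 (limma adjusted p = 0.000867). Of 40 other large subunit factors 5 rose and 6 fell. Nol9, a polynucleotide kinase of pre-rRNA processing, rose by 0.36 (limma adjusted p = 0.000863), Grwd1 by 0.40 (limma adjusted p = 0.00107), and Rpf2 fell by 0.33 (limma adjusted p = 0.0037). The RNA exosome, which trims ribosomal RNA precursors, had 2 risen and 5 fallen genes of 12, with C1d at -0.49, Exosc5 at -0.37 and Exosc2 at 0.36 (limma adjusted p-values of 0.000965, 0.00148 and 0.00165).

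Unused 5S RNP, made of 5S RNA with the Rpl5 and Rpl11 proteins, binds Mdm2 and so links ribosome assembly to p53. In that list of 9 genes 2 rose and 3 fell, Rrs1 and Rpf2 among the latter. Rpl5 read 11.06, 11.11 and 11.31 in WT and 11.63, 11.73 and 11.72 in KO, a rise of 0.53 (limma adjusted p = 0.000567). Trp53 fell, from 11.85, 11.71 and 11.77 to 11.28 in each KO library, a difference of -0.49 (limma adjusted p = 0.000154). Cdkn1a, a p53 target, rose by 0.52 (limma adjusted p = 0.000147). The other 4 genes of the list, Rpl11 and Mdm2 among them, were not called. The authors' deposited log2 fold changes were 0.09 for Rpl11 and -0.08 for Mdm2, with authors' adjusted p-values of 0.392 and 0.481. Whether the changes in this list are linked was not tested.

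Of 8 tested genes of the MYC network, 1 rose and 3 fell. Myc, named here after its value was seen, rose by 0.28 (limma adjusted p = 0.043), a call that was lost without the low-value filter, without the mean-variance trend, and without WT replicate 2 or 3 or KO replicate 2 or 3, with an adjusted p of up to 0.14. Mxd1, Mnt and Mxd3, whose products compete with MYC for MAX, fell by 1.63, 0.37 and 0.23 (limma adjusted p-values of 0.000394, 0.00538 and 0.0258). The Mxd3 call was lost without WT replicate 1 or 2 or KO replicate 1 or 2, and the authors' deposited adjusted p was 0.0519. Prmt2 and Prmt3 rose by 0.51 and 0.31 (limma adjusted p-values of 0.00135 and 0.00732) among 7 arginine methyltransferase genes. Prmt3 encodes a methyltransferase of the ribosomal protein Rps2.

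Library-wide values that could touch these results differed between genotypes for some cell markers. All 6 granulocyte-macrophage progenitor markers were in the table, and their log2 summed level was 17.2 to 17.6 in WT and 18.1 to 18.3 in KO. That sum follows the most abundant markers, since the highest mean level in the list was 17.3 and the median 12.6. Single differences ran from -1.11 to 1.45 with a median of -0.14, 3 above 0 and 3 below. Elane rose by 1.45 (by 0.812 with quantile normalization), Fcgr2b fell by 0.88, and Kit, Cd34, Fcgr3 and Mpo were not called. By the authors' deposited adjusted p 2 of the 6 were lower, Kit among them (log2 fold change -0.35, adjusted p 0.0481). For monocyte markers, 7 of 8 found, the summed level was 14.7 to 14.9 in WT and 14.6 to 14.7 in KO. These ranges overlapped although single markers moved both ways, with Csf1r at -1.83, Cd68 at -0.94, Irf8 at -0.70 and Ccr2 at 1.07, all called. B cell markers stood at 9.54 to 9.68 in WT and 8.32 to 8.69 in KO, and T and NK cell markers at 10.5 to 11.4 and 9.11 to 10.5, with overlap. In the T and NK list Nkg7 fell by 1.36 (limma adjusted p = 0.0242) and Cd3d rose by 0.44 (limma adjusted p = 0.0012). The Nkg7 call was lost without WT replicate 1 or 3, without KO replicate 1 or 2 and without the mean-variance trend, and its authors' deposited adjusted p was 0.0941. Of the 5 B cell and 5 T and NK cell markers each, 4 had a mean under 6, Cd3d and Cd3e among them. The authors' deposited log2 fold change of Cd3d was 2.01, so the deposited scale understates its rise. Each summed level mostly follows the remaining marker, with a mean of 8.99 in the B cell list and 10.2 in the T and NK list. All 5 erythroid and all 5 megakaryocyte markers had a mean under 6. In bulk samples, fewer cells of a type and less RNA per cell cannot be told apart, and the part of these markers in the differences above was not tested.

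The median value of the ribosome biogenesis genes was 10.9 in each WT library and 11.0 in each KO library. KO replicate 2 held the highest value of the 6 libraries for 23 of the 58 genes, and WT replicate 3 the lowest for 16. Correlations across tested genes were 0.999 between libraries of a genotype and 0.993 to 0.996 between genotypes. On GRCm38, Gar1 was the only member within 20 Mb of Prmt6 on chromosome 3, at 19.6 Mb, and it was not called. Exons of Rrp7a share 678 of 5411 bases with Serhl on the opposite strand, and exons of Rrp8 share 355 of 3558 bases with Ilk. The strand setting of the counting was not given in the sources used here, and reads of such partners can then not be told apart. Npm3-ps1, a pseudogene copy of Npm3, read -1.97 in every library, at the floor of the deposited values, and so did not enter the test. Reads of Npm3 may still have been shared with other similar copies, which was not tested.

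**Figure D5:**
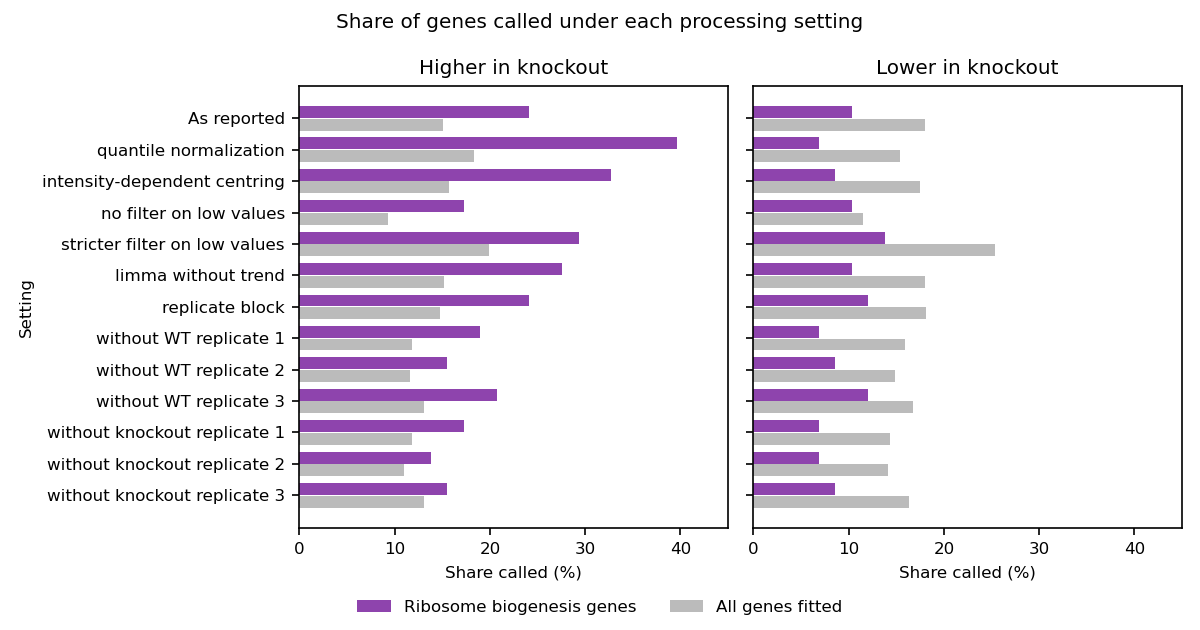
Share of genes called higher (left) or lower (right) in the KO, in percent, for the ribosome biogenesis genes (purple) and all genes fitted (grey), as reported, under each alternative setting and without each library. For rises the purple bar runs from 13.8% without KO replicate 2 to 39.7% with quantile normalization and lies above the grey bar in each setting drawn. For falls it lies below the grey bar in each, and all settings draw on the same 6 libraries.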

How the data were processed

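Poly(A) RNA-seq libraries of sorted L-GMP leukaemia cells, 3 WT and 3 Prmt6-/-, were grouped by the labels' titles. Trim Galore, kallisto, HOMER and the build GRCm38 are listed, without versions, per the submitters' processing notes. The expression values are log2 values that the authors normalized between libraries before they were deposited, and the file header names no transformation. They run from -1.97 to 18.0, and low genes are pulled together, so differences of low genes are understated. For each gene the authors also deposited the log2 fold change of their own comparison with its p-value, raw and adjusted, and these are quoted as the authors' values. Depth is unknown, since log2 values and no counts were used, and counting intervals are left out. Of 30038 rows, 1 (0.00333%) names no gene and was left out. All 6 per-sample columns were used.

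The 15454 genes that reached a deposited value of 1 in 3 or more libraries were compared between genotypes with limma 3.58.1 in R 4.3.3 (moderated two-sided test with a mean-variance trend, Benjamini-Hochberg adjusted p under 0.05). Other scalings, other filters, no trend, a replicate block, the authors' test and leaving out each library were the alternatives. Exact permutations of the labels stand beside the fully described members.

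The members and gene lists were chosen with earlier results of these data known. Fully described were Prmt6, Rrp12, Dkc1 and the 12 called members with the largest differences and separated groups. Of each other list, up to 3 called genes with the smallest p were named, and any further name was picked with its values in view. The rule would also name a gene that is not reported here. Promoters came from RefSeq (53 of 59 genes matched), positions and exon overlaps from the GENCODE annotation of GRCm38.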

Additional observations from a re-analysis of the deposited data

How the results depend on the processing

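None of the 20 called members changed sign in the 13 alternatives, and 11 kept their call in every one of them (Npm3, Dkc1, Rrs1, Nop14, Utp15, Rrp1b, Polr1b, Nop56, Polr1c, Rrp12 and Rrn3). The other 9 lost it without at least 1 library. Members that rose numbered 14, which became 23 with quantile normalization, 19 with intensity-dependent centring, 10 with no filter and 17 with the stricter filter. Leaving out 1 library gave 8 to 12. Members that fell numbered 6, with 4 to 8 over all alternatives. The set's median difference of 0.0510 became 0.113 with quantile normalization and 0.0741 with intensity-dependent centring, and 0.0361 to 0.0501 without single libraries. Other ribosome biogenesis genes that rose numbered 15, and 27 with quantile normalization, where 13 fell. With that normalization 2827 of all tested genes rose and 2378 fell, so that rises outnumbered falls. The cause was not tested. The median over all tested genes was 0.00565, and it was 0.00956 with quantile normalization and 0.000853 with intensity-dependent centring. That median covers genes of all levels, so it cannot show a shift confined to the members' level range. The share of members called higher was above that of all genes fitted, and the share called lower was below it, in each alternative of the limma fit. Those alternatives reuse the same 6 libraries, and some margins were small. Without KO replicate 2, 13.8% of members rose beside 11.0% of all genes, and without KO replicate 3, 15.5% beside 13.1%. With no filter, 10.3% of members fell beside 11.5% of all genes. Genes of the members' level range were set beside the members in the main setting only.

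Some uncalled members changed sign. With quantile normalization the differences were Ubtf 0.0207, Nhp2 0.0780, Npm1 0.0795, Ddx21 0.0142, Wdr43 0.0363, Imp4 0.0944, Ddx10 0.0666, Pes1 0.0214, Bop1 0.0311, Ddx18 0.0555 and Wdr74 0.0379. With intensity-dependent centring they were Nhp2 0.0395, Npm1 0.0186, Wdr43 0.00432, Imp4 0.0581, Ddx10 0.0153, Ddx18 0.0141 and Wdr74 0.00683. Without single libraries the ranges were -0.0155 to 0.0580 for Utp14a, -0.0669 to 0.00766 for Wdr74, -0.0174 to 0.112 for Polr1a, -0.0253 to 0.0194 for Polr1e and -0.0246 to 0.0504 for Mybbp1a. They were -0.106 to 0.0740 for Noc2l, -0.0543 to 0.00203 for Nhp2, -0.0122 to 0.0109 for Imp4, -0.00551 to 0.0389 for Noc4l and -0.00901 to 0.0161 for Nop16. The other ranges were -0.0694 to 0.0189 for Ddx18, -0.114 to 0.0137 for Npm1, -0.0956 to 0.0165 for Wdr43 and -0.0616 to 0.0273 for Ddx10.

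With the replicate number as a block, 14 members rose and 7 fell, of which 13 and 6 were called without it. Deviations of same-numbered libraries correlated by 0.0948, 0.0727 and 0.172, not all above 0.1, and no pairing was assumed. Each library correlated best with its own number, which is a hint from the data and not from the labels. Another pseudocount was not run, since it applies to linear values only. Limits are the 3 libraries per genotype, an unknown depth and a scale that understates changes. The understatement is strongest for low genes and for large falls such as that of Prmt6. Nolc1 is a low gene too, but it was called neither here nor by the authors' deposited adjusted p.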
